A study of Mus musculus with 9 samples.

Results

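The nuclear-encoded subunits of the oxidative phosphorylation complexes were taken from a table of mouse liver tumour transcripts by gene name, as names beginning with Nduf and a subunit letter and number (A, B, C, S or V), with Uqcr, with Cox4 to Cox8 or with Atp5, leaving out names that carry -ps. The rule found 81 of 32761 genes, and used no measured value. They were 37 genes of complex I, 8 of complex III, 19 of complex IV and 17 of ATP synthase. All 81 passed the filter on low values, a mean of at least 0.5 FPKM (a fragment count divided by gene length and library size) over the 9 libraries, which 15353 genes passed. The name rule takes no subunit of complex II, and leaves out Ndufab1, Cyc1 and cytochrome c.

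Tumours grew in the liver from Hepa1-6-luc cells, a mouse hepatoma line marked with luciferase, and were taken on day 14. The design lists 6 groups, and 3 of these have libraries, 3 each. The Control group carried the same tumours, and the labels do not say what, if anything, it was injected with. The Lenvatinib+anti-PD1 group (the lenvatinib group) received free lenvatinib, an inhibitor of the VEGF and FGF receptor kinases, and an antibody against PD1, an inhibitory receptor of T cells. The Co+Len@OVA+anti-PD1 group (the nanocluster group) received nanoclusters loaded with lenvatinib, and the same antibody. Injections went into the tail vein, with 50 µg of antibody every 4 days and nanoclusters at 2 mg/mL, or free lenvatinib at an equivalent concentration, every 3 days. The meaning of Co is not spelled out. No sequenced group had the drug, the antibody or the carrier alone, so these cannot be told apart, nor can formulation and delivered dose. Strain, sex and age of the mice are not described. The comparisons ask what each treatment did to tumour transcripts, and where the nanocluster differed from the free drug.

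Oxidative phosphorylation makes most of the ATP of a resting cell on the inner mitochondrial membrane. Complex I takes electrons from NADH, complex III passes them from ubiquinol to cytochrome c, and complex IV hands them to oxygen. These complexes pump protons, and ATP synthase uses the returning protons to make ATP. Complexes I, III and IV and ATP synthase each join nuclear-encoded subunits with subunits encoded in mitochondrial DNA. Several complex IV subunits also have alternative isoforms, made mainly in muscle, in lung or vessel wall, in testis, or in hypoxia.

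Promoters of nuclear respiratory genes are known for motifs of the factors NRF1, the ETS family and YY1. Windows from 250 bases before to 50 bases after the start site were in RefSeq's GRCm38.p6 set for 64 of the 81 genes. The NRF1 motif GCGCANGCG, searched on both strands like the others, was in 18 of these 64 (28.1%) and in 7.03% of the 27025 genes of the set. The ETS motif CCGGAAG was in 15 of 64 (23.4%) against 9.93% of genes, the YY1 motif AAGATGGCG in 7 of 64 (10.9%) against 1.64%, and TATAAA in 7 of 64 (10.9%) against 15.7%. The windows printed here are those of genes that the results below turn on. Ndufs6 (chr13:73328433-73328732, minus strand), the complex I gene with the smallest p between the treatments, has an NRF1 motif that begins 15 bases before the start site and a YY1 motif 33 bases after it. Ndufs5 (chr4:123718137-123718436, minus strand) has an NRF1 motif 98 bases before the start. Uqcr11 of complex III (chr10:80406772-80407071, minus strand) has an ETS motif 66 bases and an NRF1 motif 5 bases before it. Cox8a (chr19:7217567-7217866, minus strand) and Cox8b (chr7:140900397-140900696, minus strand) are the ubiquitous and the muscle isoform of one complex IV subunit, and are shown to set 2 promoters of one subunit side by side. Cox8a has ETS motifs 5 bases before and 32 bases after the start, and Cox8b has TATAAA 4 bases after the start and none of the other motifs. Each window reads 5′ to 3′ on the gene's strand, with matches to a motif on either strand in capitals. A match is a match of letters, and says nothing of binding.
Ndufs6: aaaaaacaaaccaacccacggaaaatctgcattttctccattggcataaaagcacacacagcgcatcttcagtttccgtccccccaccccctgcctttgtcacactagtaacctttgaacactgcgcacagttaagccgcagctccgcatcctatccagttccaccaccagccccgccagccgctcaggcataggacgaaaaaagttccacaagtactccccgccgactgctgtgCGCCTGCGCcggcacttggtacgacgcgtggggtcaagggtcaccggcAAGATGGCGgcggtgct
Ndufs5: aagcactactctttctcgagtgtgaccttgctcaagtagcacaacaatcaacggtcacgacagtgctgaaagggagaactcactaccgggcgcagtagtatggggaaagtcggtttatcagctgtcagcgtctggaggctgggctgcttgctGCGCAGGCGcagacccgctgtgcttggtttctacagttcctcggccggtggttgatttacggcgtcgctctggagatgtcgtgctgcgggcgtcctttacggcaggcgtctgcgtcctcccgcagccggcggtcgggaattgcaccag
Uqcr11: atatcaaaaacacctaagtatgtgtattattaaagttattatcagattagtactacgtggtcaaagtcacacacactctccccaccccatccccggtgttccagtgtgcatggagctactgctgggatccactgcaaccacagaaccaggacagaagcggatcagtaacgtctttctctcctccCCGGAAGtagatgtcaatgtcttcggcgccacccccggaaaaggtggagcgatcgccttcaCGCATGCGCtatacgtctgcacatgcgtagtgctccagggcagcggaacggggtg
Cox8a: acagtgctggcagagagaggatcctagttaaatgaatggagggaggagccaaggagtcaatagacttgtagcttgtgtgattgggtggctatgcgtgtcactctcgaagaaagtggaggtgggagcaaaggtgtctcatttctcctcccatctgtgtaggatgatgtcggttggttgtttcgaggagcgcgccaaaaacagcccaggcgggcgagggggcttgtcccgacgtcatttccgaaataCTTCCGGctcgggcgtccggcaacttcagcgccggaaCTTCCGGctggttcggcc
Cox8b: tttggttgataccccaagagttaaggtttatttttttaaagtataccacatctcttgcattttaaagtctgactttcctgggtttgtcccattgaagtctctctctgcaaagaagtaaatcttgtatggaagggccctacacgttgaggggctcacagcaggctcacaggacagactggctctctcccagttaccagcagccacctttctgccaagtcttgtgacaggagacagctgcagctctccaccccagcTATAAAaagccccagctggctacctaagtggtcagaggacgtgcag

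The level of the subunits differed more between genes than between groups. In complex I the lowest mean FPKM over the 9 libraries was 0.61, for Ndufs6b, a copy of Ndufs6. In complex III the mean ran from 33.5 for Uqcrc1 to 94.4 for Uqcrfs1, the Rieske iron-sulphur protein. The 12 complex IV genes other than tissue or condition isoforms lay between 34.7 for Cox6c and 235 for Cox6a1, with a median of 79.1. ATP synthase genes lay between 9.86 for Atp5g1 and 268 for Atp5b, the catalytic beta subunit, and complex I had the lowest median, 25.9. Within a group the 74 genes other than tissue or condition isoforms varied little, with a median coefficient of variation of 7.90% in Control, 5.82% in the lenvatinib group and 6.66% in the nanocluster group. Together the 81 genes made up 1.07% to 1.16% of the FPKM total of a library.

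**Figure D1:**
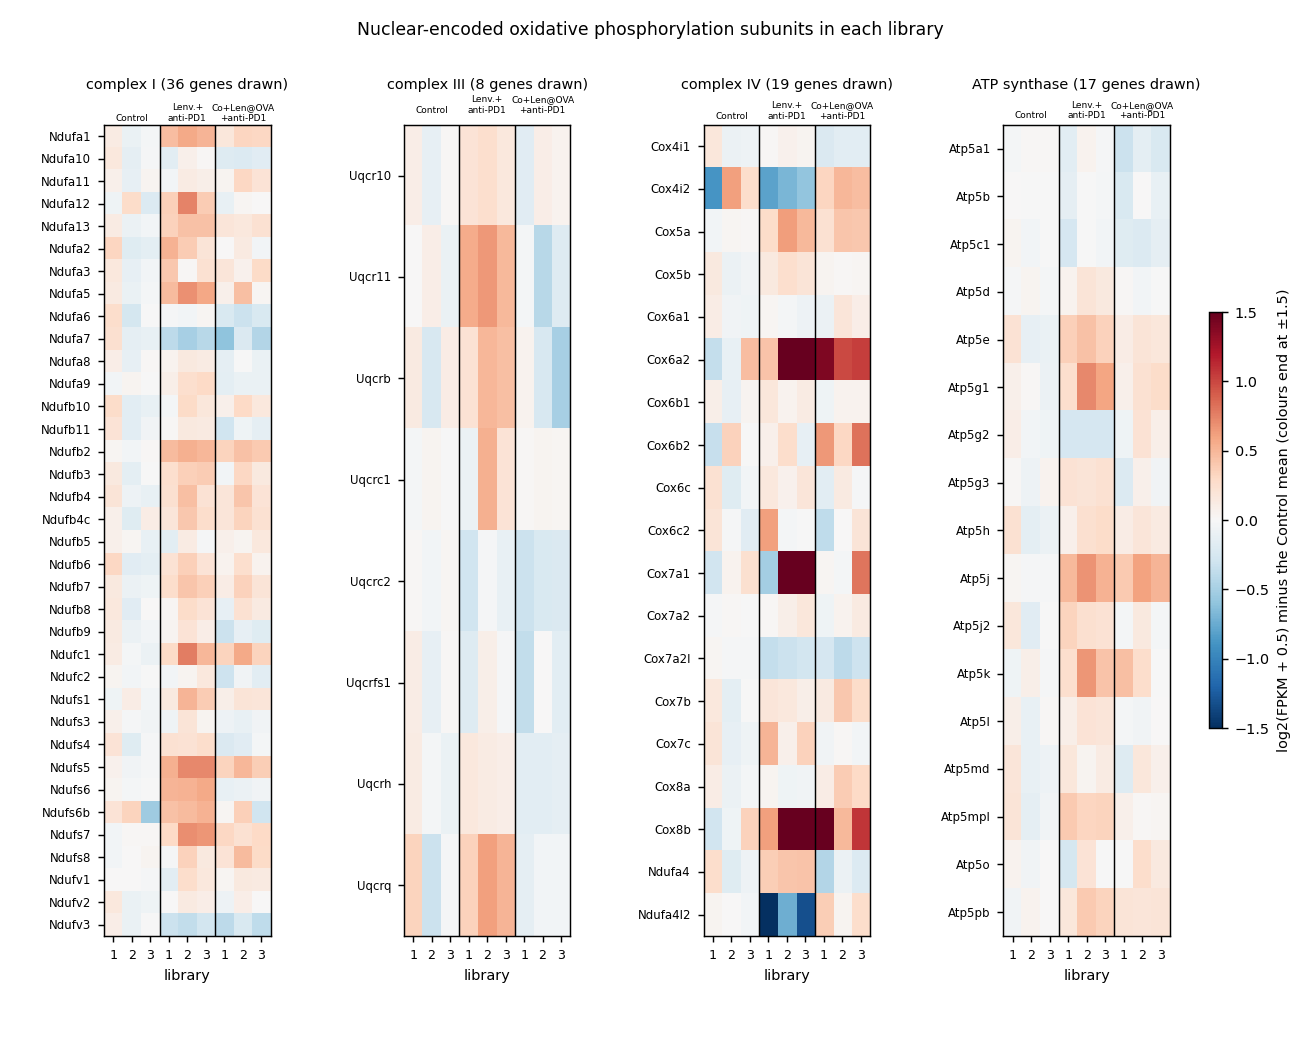
Heat map of log2(FPKM + 0.5) minus the Control mean for 80 of the 81 genes (rows, by complex) in each of the 9 libraries (columns, by group), with red above and blue below the Control mean and colours ending at 1.5. Most rows are pale, the lenvatinib columns are red for more rows than the nanocluster columns, and the deepest colours are in complex IV isoforms such as Cox6a2, Cox8b and Ndufa4l2.

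FPKM totals ran from 331611 to 372794 per library, and the depth in fragments is unknown. The third library of each group lay between the other pair for 97.5% of 278 genes in the nanocluster group, 97.5% of 284 in the lenvatinib group and 94.9% of 350 in Control, taking genes with more than a 4-fold gap from library 1 to library 2. For the subunits it lay between them in 54 of 81 cases (66.7%) in each group, against 65.5%, 45.4% and 66.7% of all genes tested. Whether the third libraries are independent tumours was not tested, and nothing in the labels says that libraries of a group came from separate animals, so p-values measure only the spread between these libraries. With libraries 1 and 2 alone (3 residual degrees of freedom) no subunit passed in either comparison with Control and only Ndufs6 passed between the treatments. At an unadjusted p under 0.05 there were 3 higher and 1 lower for the nanocluster against Control, 11 and 4 for lenvatinib against Control, and 1 and 7 between the treatments. The share of all genes at that unadjusted p was not counted in this fit, so these counts show nothing particular to the subunits. Lenvatinib libraries 2 and 3 held muscle transcripts, with 23 muscle markers summing to 6702 and 2682 FPKM against 27.1 to 90.9 in the other 7 libraries. Hepatocyte markers summed to 790 to 1128 FPKM in the nanocluster group, 3965 to 4200 in the lenvatinib group and 2503 to 5820 in Control, and macrophage markers to 1858 to 2187, 474 to 566 and 313 to 1379. T cell markers summed to 285 to 427, 123 to 131 and 37.4 to 143 in the same order. With the nanocluster against Control 11 of 12 T cell markers and 1 of 10 macrophage markers rose, where 20.9% of all genes rose. All 14 hepatocyte markers fell in that comparison, where 12.7% of all genes fell. Hepatoma markers summed to 238 to 247, 381 to 437 and 373 to 443. Of 4 tested Afp alone passed with the nanocluster, and fell against both other groups. The 4 markers differed in direction, with 2 positive and 2 negative log2 fold changes against Control, and 1 and 3 against lenvatinib. In bulk tumours fewer cells of a type and less RNA per cell cannot be told apart, and the part of cell makeup in the results below was not tested.

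In lenvatinib tumours a number of subunits were modestly above Control. Of the 81 genes 21 rose (25.9%) and 4 fell, against 13.8% of all genes tested that rose and 9.87% that fell (limma, Benjamini-Hochberg threshold 0.05 over all genes). The risen genes were 12 of 37 in complex I, 2 of 8 in complex III, 1 of 19 in complex IV and 6 of 17 in ATP synthase. Without lenvatinib 2, lenvatinib 3 or Control 3 the complex I count was 7, that of complex III 1 and that of ATP synthase 1, and with median-of-ratios scaling that of ATP synthase was 3. The median log2 fold change of the 81 genes was 0.20, against 0.05 over all genes tested, and 64 of the 81 values were positive. Under the other scalings of the libraries 62 to 66 were positive.

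Among the complex I genes, Ndufs6 encodes a zinc-binding subunit of the NADH-oxidising arm. It was at 16.1, 15.4 and 15.5 FPKM in Control and at 22.6, 22.8 and 23.5 in the lenvatinib group, with no overlap (log2 fold change 0.54 ± 0.05 SE, adjusted p = 0.000367, limma). Ndufs5, a subunit of the membrane arm on the intermembrane side, was at 18.1, 16.6 and 17.0 in Control and 25.2, 28.6 and 28.8 in the lenvatinib group (0.66 ± 0.07 SE, adjusted p = 0.0009). Every lenvatinib library stood above every Control library for both genes. Ndufs7, a core subunit that carries the last iron-sulphur cluster before the quinone, rose from 19.3 ± 0.51 to 28.7 ± 4.25 FPKM (SD, n = 3; adjusted p = 0.00687). Ndufa5, an accessory subunit of the matrix arm, rose from 9.28 ± 0.82 to 14.1 ± 1.09 (adjusted p = 0.0123). Ndufs1, the largest core subunit, passed with all libraries (0.35, adjusted p = 0.0379), but no longer did so without any 1 of 6 libraries, namely nanocluster 2 or 3, lenvatinib 2 or 3, or Control 1 or 3 (adjusted p up to 0.122). The remaining risen complex I genes were Ndufa1, Ndufa9, Ndufa12, Ndufa13, Ndufb2, Ndufb7 and Ndufc1. The core genes Ndufs3, Ndufs8, Ndufv1 and Ndufv2 did not pass, with log2 fold changes between 0.05 and 0.16. Ndufa7 and Ndufv3, accessory subunits of the matrix arm, went the other way. Ndufv3 fell from 16.6 ± 1.23 to 13.2 ± 0.45 FPKM (adjusted p = 0.0166, and 0.0586 at most without lenvatinib 2 or Control 3).

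In complex III the rise was in 2 small accessory subunits, Uqcr11 and Uqcrq. Uqcr11 was at 38.3, 40.7 and 35.4 FPKM in Control and at 56.1, 59.9 and 53.7 in the lenvatinib group, again without overlap (0.56 ± 0.10 SE, adjusted p = 0.00704, limma). Uqcrq was at 31.5 ± 7.22 and 43.9 ± 4.05 (SD, n = 3; adjusted p = 0.048, and above 0.05, up to 0.138, without any 1 library other than Control 1). The large core proteins Uqcrc1 and Uqcrc2 and the Rieske protein gene Uqcrfs1 did not pass. In complex IV only Cox5a, a matrix-side subunit that binds thyroid hormone T2, rose, from 31.3, 32.9 and 32.8 to 39.4, 50.3 and 45.6 FPKM (0.47 ± 0.09 SE, adjusted p = 0.0101). The catalytic core of complex IV is mitochondrially encoded, and the abundant nuclear subunits Cox4i1, Cox6a1 and Cox8a were at log2 fold changes of 0.04, -0.03 and -0.02. In ATP synthase, Atp5j (coupling factor 6 of the peripheral stalk) rose from 17.2, 16.6 and 16.7 to 23.7, 27.1 and 24.5 FPKM (0.56 ± 0.07 SE, adjusted p = 0.00177). The other risen genes were Atp5pb of the peripheral stalk, Atp5e of the central stalk, Atp5g1, 1 of 3 genes for the c-ring subunit, and Atp5k and Atp5mpl, small membrane subunits. The catalytic alpha and beta genes Atp5a1 and Atp5b were at -0.04 and -0.06.

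Cox7a2l encodes the factor that joins complexes III and IV in supercomplexes. It was at 120, 116 and 116 FPKM in Control, at 91.2, 93.6 and 97.2 in the lenvatinib group and at 98.4, 89.5 and 94.5 in the nanocluster group. It was thus lower in each treated library than in each Control library, with a log2 fold change of -0.32 ± 0.06 SE in both comparisons (adjusted p = 0.00641 for lenvatinib and 0.00512 for the nanocluster, limma), values that share the same controls. Between the treatments it differed by 0.00 ± 0.06 SE (adjusted p = 0.989).

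Of the 21 risen genes 10 kept the call whichever library was left out, namely Cox5a, Ndufb2, Ndufa1, Ndufs7, Uqcr11, Ndufs6, Atp5j, Ndufa5, Ndufs5 and Ndufa13, and of the 4 fallen genes Cox7a2l and Ndufa4l2 did. The number that rose was 11 without lenvatinib 2, 10 without lenvatinib 3 and 10 without Control 3, and 2 fell without lenvatinib 2 or without Control 3. Lenvatinib 2, the library with most muscle transcripts, was the highest of its group for 51 of all 81 genes. Lenvatinib 1, with muscle markers at 70.1 FPKM, was above every Control library for 42 of the 81, below every one for 19 and within their range for 20. The matching shares of all genes were not counted for either library, so these counts show nothing particular to the subunits. Without lenvatinib 2 and 3 the group has 1 library, and far fewer subunits and far fewer of all genes tested passed. The drop in calls thus shows nothing particular to the subunits. Ndufs6 was then at a log2 fold change of 0.51 and Ndufa4l2 at -2.05. The median was 0.15 over the 81 genes, with 57 of them positive, against 0.0088 over all genes tested.

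**Figure D2:**
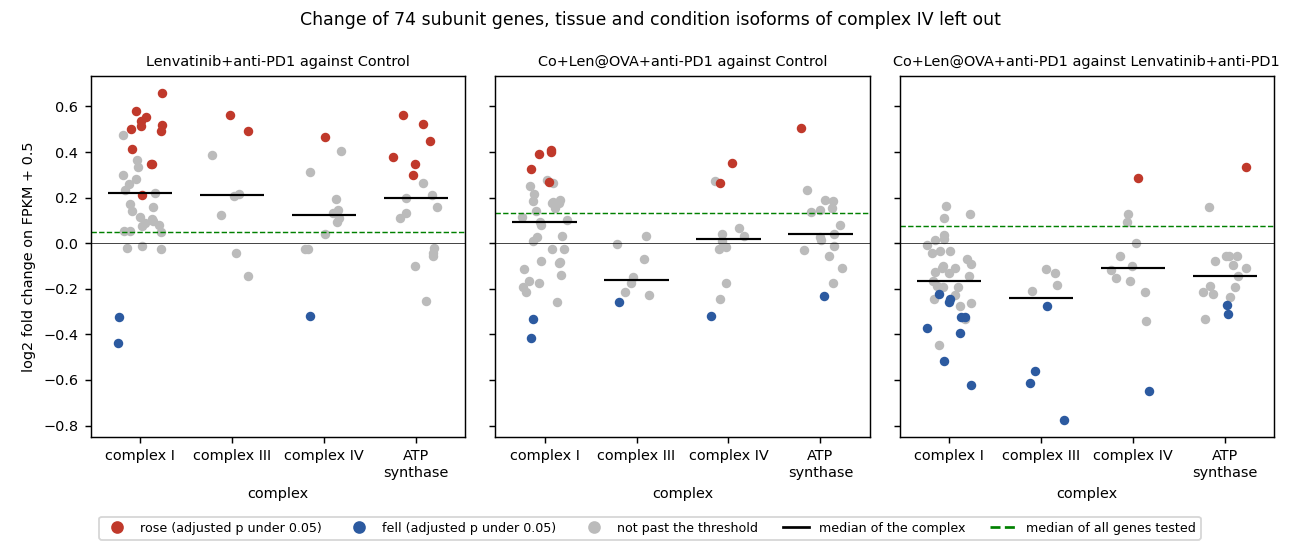
Log2 fold changes on FPKM + 0.5 (vertical axis) of the 74 genes other than tissue or condition isoforms of complex IV, by complex (horizontal axis) in the 3 comparisons, with risen genes in red, fallen genes in blue, medians of each complex as black lines and the median of all genes tested as a dashed green line. In lenvatinib against Control the medians of all 4 complexes lie above the median of all genes, and between the treatments all 4 lie below it.

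In nanocluster tumours the subunits as a set stayed near Control, and a few genes moved either way. Of the 81 genes 8 rose (9.88%) and 5 fell (6.17%), against 20.9% and 12.7% of all genes tested (33.6% in either direction). The median log2 fold change was 0.03, against 0.13 over all genes, with 48 positive and 33 negative. This balance depended on the scaling of the libraries. With median-of-ratios scaling 2 rose and 12 fell, where 13.4% and 18.3% of all genes did, and 52 of 81 values were negative. With upper quartile scaling 42 were negative. With scaling that leaves out mitochondrial genes 16 rose and 3 fell, where 22.4% and 10.8% of all genes did. The calls over all genes thus moved with the scaling too.

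The risen genes were Ndufa1, Ndufb2, Ndufc1, Ndufs5 and Ndufs8 of complex I, Cox5a and Cox8a of complex IV and Atp5j of ATP synthase. Atp5j was at 22.3, 25.9 and 24.2 FPKM in the nanocluster group, against the Control values of 17.2, 16.6 and 16.7 (0.51 ± 0.07 SE, adjusted p = 0.00212, limma). Ndufs5 was at 21.9, 24.5 and 22.4 (0.40 ± 0.07 SE, adjusted p = 0.00564, and 0.0715 with median-of-ratios scaling). Ndufb2, an accessory subunit of the membrane arm, was low in all libraries, at 1.90, 1.78 and 1.89 in Control and 2.48, 2.70 and 2.60 in the nanocluster group (0.39 ± 0.08 SE, adjusted p = 0.00731). For these 3 genes no nanocluster library overlapped Control, and they kept the call whichever library was left out. Cox8a, with 2 ETS motifs in the window printed above, was at 220, 192 and 200 FPKM in Control, 210, 195 and 196 in the lenvatinib group and 221, 265 and 250 in the nanocluster group. Its rise of 0.26 ± 0.09 SE was marginal (adjusted p = 0.0469), and passed in only 2 of the 9 fits that leave out a library, those without nanocluster 1 or Control 1 (adjusted p up to 0.137 in the others).

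The fallen genes were Ndufa7, Ndufv3, Uqcrc2, Cox7a2l and Atp5a1. Cox7a2l kept the call whichever library was left out, and Ndufv3 lost it only without nanocluster 3 (adjusted p = 0.0511). Ndufv3 was at 17.9, 15.4 and 16.6 FPKM in Control and 12.6, 14.1 and 12.6 in the nanocluster group (-0.33 ± 0.07 SE, adjusted p = 0.0115, limma). Atp5a1, the alpha subunit of the catalytic head, was at 272, 280 and 281 in Control and 222, 250 and 237 in the nanocluster group. Its change of -0.23 ± 0.07 SE passed with all libraries (adjusted p = 0.0419), but not without nanocluster 1 or 3, lenvatinib 3 or any Control library (up to 0.112). The number of subunits that rose was 3 without nanocluster 2, nanocluster 3 or Control 3, 4 without lenvatinib 3, 5 without Control 2 and 13 without Control 1. The number that fell was 2 without nanocluster 1, lenvatinib 3, Control 1 or Control 3, and 1 without nanocluster 3.

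Side by side, and sharing their controls, 6 genes rose in both treated groups against Control (Atp5j, Cox5a, Ndufa1, Ndufb2, Ndufc1 and Ndufs5) and 3 fell in both (Cox7a2l, Ndufa7 and Ndufv3). No subunit rose in one and fell in the other. How many of all genes tested did the same was not counted, so these overlaps show nothing particular to the subunits.

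Between the treatments the subunits were lower with the nanocluster than with lenvatinib. Of the 81 genes 16 fell (19.8%) and 4 rose (4.94%), against 12.0% and 17.3% of all genes tested (29.4% in either direction). The groups did not overlap for 32 genes that were lower and 5 that were higher, against 20.4% and 34.3% of all genes. The fallen genes were 9 of 37 in complex I, 4 of 8 in complex III, 1 of 19 in complex IV and 2 of 17 in ATP synthase. The complex I count was 2 without nanocluster 1, lenvatinib 2 or lenvatinib 3, 3 without nanocluster 3 and 5 without Control 3. The complex III count was 1 without nanocluster 3 and 2 without nanocluster 2, lenvatinib 2 or lenvatinib 3. That of complex IV was 4 without lenvatinib 1 or Control 1 and 2 without lenvatinib 2. That of ATP synthase was 0 without nanocluster 1, nanocluster 3, lenvatinib 2 or lenvatinib 3, 1 without nanocluster 2, lenvatinib 1 or Control 3, 5 without Control 1 and 7 with median-of-ratios scaling. The median log2 fold change was -0.17, against 0.07 over all genes, and 66 of the 81 values were negative, 65 to 71 under the other scalings. Of the 16 fallen genes 10 were among those that rose in the lenvatinib group against Control, a comparison that shares the lenvatinib libraries. The matching overlap over all genes was not counted.

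Ndufs6 had the smallest p of the 81 genes. It was at 14.4, 14.7 and 15.1 FPKM in the nanocluster group, against 22.6, 22.8 and 23.5 in the lenvatinib group, with a spread within each group far smaller than the gap (-0.62 ± 0.05 SE, adjusted p = 9.2e-05, limma). It was the only subunit that also passed with libraries 1 and 2 alone (-0.62, adjusted p = 0.0474). Against Control the nanocluster value of Ndufs6 did not pass (-0.08 ± 0.05 SE, adjusted p = 0.203). Uqcr11 showed the largest fall among the 4 complex III genes, at 37.3, 28.4 and 33.2 FPKM in the nanocluster group against 56.1, 59.9 and 53.7 (-0.78 ± 0.10 SE, adjusted p = 0.00125). Uqcrb, Uqcrh and Uqcrq were the other fallen complex III genes, all encoding small subunits that lack redox centres. All 8 complex III values were negative.

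Ndufa4 was first described in complex I and is now placed in complex IV. It was at 75.0, 77.5 and 78.1 FPKM in the lenvatinib group and 42.6, 54.6 and 50.1 in the nanocluster group, with Control at 69.4, 51.1 and 54.7. The treated groups did not overlap (-0.65 ± 0.13 SE, adjusted p = 0.00745, limma), and Control overlapped the nanocluster group. Ndufa9, a subunit near the quinone site at the joint of both arms of complex I, was at 37.1, 41.7 and 43.0 in the lenvatinib group and 31.6, 32.6 and 32.6 in the nanocluster group (-0.32 ± 0.07 SE, adjusted p = 0.0087). The other fallen complex I genes were Ndufa1, Ndufa5, Ndufa12, Ndufa13, Ndufb9, Ndufs4 and Ndufs5. None of the 7 core genes of complex I passed in this comparison.

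The c-ring of ATP synthase is made of one protein encoded by 3 genes, which differed in direction. Atp5g2 was at 65.3, 59.3 and 58.3 FPKM in Control, 51.1, 50.9 and 51.0 in the lenvatinib group and 58.0, 70.7 and 65.0 in the nanocluster group. It was higher with the nanocluster than with lenvatinib (0.33 ± 0.08 SE, adjusted p = 0.0177, limma), a call lost without nanocluster 3 or any lenvatinib library (up to 0.066). Atp5g3 was lower, with 92.1 ± 1.34 in the lenvatinib group and 76.5 ± 7.48 in the nanocluster group (SD, n = 3; adjusted p = 0.0344, lost without 6 of the 9 libraries, namely nanocluster 1 or 3, any lenvatinib library or Control 3, up to 0.103). Atp5g1 was at 12.0 ± 2.01 and 9.38 ± 0.70 and did not pass (adjusted p = 0.0693). Cox8a also rose between the treatments (0.29 ± 0.09 SE, adjusted p = 0.0391), a call lost without nanocluster 2 or 3, any lenvatinib library or Control 3 (up to 0.122).

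Of the 16 fallen genes Ndufa9, Uqcr11, Ndufs6 and Ndufa4 kept the call whichever library was left out, and of the 4 risen genes Ndufa4l2 did. The number that fell was 6 without nanocluster 1, 10 without nanocluster 2, 5 without nanocluster 3, 6 without lenvatinib 2, 5 without lenvatinib 3 and 26 without Control 1, and the number that rose was 2 without nanocluster 2 or Control 3 and 1 without nanocluster 3 or any lenvatinib library. Without lenvatinib 2 and 3, which leaves 1 lenvatinib library, fewer subunits and fewer of all genes tested passed. Ndufs6 was then at -0.60 and Uqcr11 at -0.77. Of the 81 values 47 were negative, with a median of -0.05, against 0.12 over all genes tested.

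**Figure D3:**
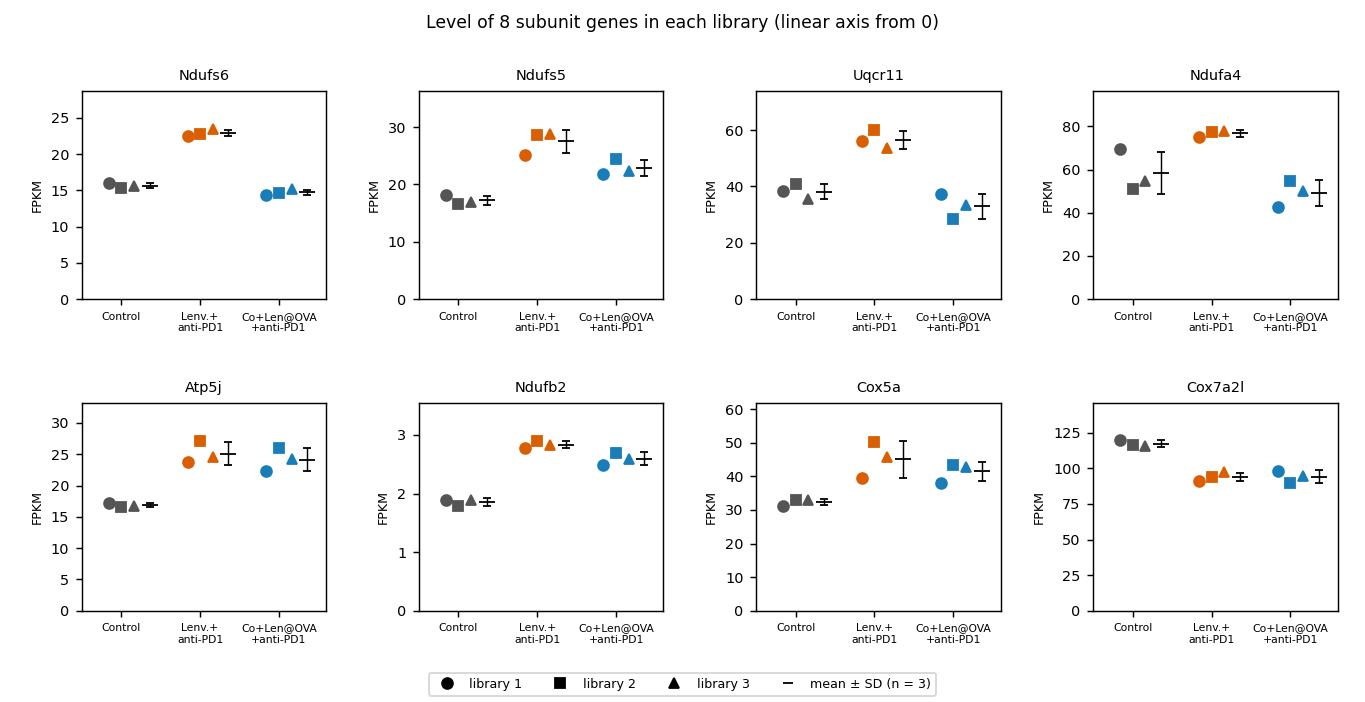
FPKM (vertical axis, linear from 0) of 8 subunit genes in each library of the 3 groups (horizontal axis), with symbols for libraries 1 to 3 and the mean ± SD (n = 3) beside them. Ndufs6, Uqcr11 and Ndufa4 are highest in the lenvatinib libraries, Atp5j and Ndufb2 are high in both treated groups, and Cox7a2l is low in both.

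Copies of some subunit genes are listed on their own rows, and the handling of reads they share is not described. Ndufa12-ps, left out by the name rule, made up 82.2% of the summed FPKM of Ndufa12 and its copy. Ndufa12 alone rose with lenvatinib against Control and fell between the treatments, while with the copy added the groups overlapped in all 3 comparisons, so its calls are uncertain. Ndufs6b made up 3.32% of the sum with Ndufs6, and Ndufs5-ps 5.63% of the sum with Ndufs5, and these sums kept the separations seen for Ndufs6 and Ndufs5 alone. Adding Ndufb4c, 59.7% of its sum with Ndufb4, turned an overlap with Control into nanocluster values that were all higher. Adding Atp5pb-ps, 5.58% of its sum with Atp5pb, turned an overlap between the treatments into nanocluster values that were all lower.

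The tissue and condition isoforms of complex IV held the widest differences. Ndufa4l2, a paralogue of Ndufa4 induced in hypoxia and also made in pericytes, was at 7.37, 7.18 and 6.96 FPKM in Control, 1.35, 4.11 and 2.59 in the lenvatinib group and 9.40, 7.40 and 8.72 in the nanocluster group. All lenvatinib libraries lay below all others. It fell with lenvatinib against Control (-1.37 ± 0.28 SE, adjusted p = 0.0115, limma) and rose with the nanocluster against lenvatinib (1.59 ± 0.28 SE, adjusted p = 0.00512), and did not pass for the nanocluster against Control (0.23 ± 0.28 SE, adjusted p = 0.56). Both calls for Ndufa4l2 held whichever library was left out and without lenvatinib 2 and 3 (-2.05, adjusted p = 0.00728, and 2.28, adjusted p = 0.00186). With libraries 1 and 2 alone they did not pass (-1.41, adjusted p = 0.23, and 1.60, adjusted p = 0.159). Its FPKM was 10.6% to 14.0% of that of Ndufa4 in Control, 1.79% to 5.30% in the lenvatinib group and 13.6% to 22.0% in the nanocluster group.

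Cox4i2, the isoform of subunit 4 made in lung and vessel wall and induced in hypoxia, was at 1.93, 6.35 and 4.88 FPKM in Control, 2.07, 2.28 and 2.48 in the lenvatinib group and 5.10, 5.84 and 5.65 in the nanocluster group. The treated groups did not overlap, and Control 1 lay with the lenvatinib libraries while Control 2 lay just above and Control 3 just below the nanocluster range. Cox4i2 rose between the treatments (1.12 ± 0.33 SE, adjusted p = 0.0372, limma), a call lost without any 1 nanocluster or lenvatinib library or Control 3 (up to 0.103). Against Control it did not pass for lenvatinib (-0.69 ± 0.33 SE, adjusted p = 0.165), and did so without Control 1 (-1.13, adjusted p = 0.000797). For the nanocluster against Control it did not pass either. Its ubiquitous partner Cox4i1 was at 182 ± 19, 186 ± 3.14 and 160 ± 3.90 FPKM in Control, lenvatinib and nanocluster (SD, n = 3). Markers of pericytes and smooth muscle were also higher with the nanocluster than with lenvatinib, summing to 33.5 to 55.5 FPKM in Control, 23.8 to 53.8 in the lenvatinib group and 85.4 to 141 in the nanocluster group, with 5 of 8 tested rising between the treatments. Against Control 4 of the 8 rose with the nanocluster, where 20.9% of all genes rose, and 0 passed with lenvatinib. Of 12 hypoxia genes that act on mitochondria or mark low oxygen 8 fell with lenvatinib and 6 with the nanocluster against Control. Of all genes 9.87% and 12.7% fell in these comparisons. Among the fallen hypoxia genes was Bnip3, a mitophagy receptor (-1.07 and -1.03, adjusted p = 0.000638 and 0.000615, limma). Between the treatments 2 of the 12 rose and 1 fell, against 17.3% and 12.0% of all genes. The part of vessel-wall cells and of hypoxia in the values of these isoforms was not tested.

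Cox6a2, Cox7a1 and Cox8b are the isoforms of heart and skeletal muscle, and Cox7a1 and Cox8b are also made in brown fat. Cox6a2 was at 0.488, 55.7 and 22.8 FPKM in the lenvatinib group, at 0.074, 0.183 and 0.519 in Control and at 1.44, 0.964 and 1.01 in the nanocluster group. Cox7a1 was at 0.439, 12.7 and 5.35 in the lenvatinib group, at 0.598, 0.884 and 1.08 in Control and at 0.866, 0.807 and 1.84 in the nanocluster group. Cox8b was at 0.433, 26.6 and 11.2 in the lenvatinib group, at 0.277 or below in Control, where library 1 listed it at 0, and at 2.23, 0.356 and 0.78 in the nanocluster group. High values thus stood in lenvatinib libraries 2 and 3 alone, and the same libraries held the muscle transcripts. Ckm, creatine kinase of muscle, was at 4.08, 542 and 210 FPKM in the lenvatinib group. Lenvatinib 3 had 41.0%, 42.0% and 42.2% of the level of lenvatinib 2 for Cox6a2, Cox7a1 and Cox8b, and a median of 39.7% (34.5% to 50.4%) over the 23 muscle markers. Brown fat's Ucp1 was also highest there, at 13.5 and 5.68 FPKM. Adipocyte markers summed to 7.60, 327 and 135 FPKM in the lenvatinib group, 207, 35.1 and 120 in the nanocluster group and 6.08 to 12.3 in Control. In the nanocluster group Cox8b was likewise highest in library 1 and lowest in library 2. The part of muscle and of fat cells in the values of these isoforms was not tested in any group. Muscle markers at 0 numbered 9 of 23 in Control 1, 5 of 23 in Control 2 and none in the other libraries.

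With all libraries and a pseudocount of 0.5 these muscle isoforms passed in no comparison (adjusted p = 0.0593, 0.187 and 0.0548 for lenvatinib against Control, limma). With a pseudocount of 0.1 Cox6a2 and Cox8b passed for lenvatinib against Control (4.86 and 4.84, adjusted p = 0.0463 and 0.0361). Without lenvatinib 1, the only library of its group with few muscle transcripts, they passed (5.62, 2.72 and 4.87, adjusted p = 0.000615, 0.00577 and 0.00234), and without lenvatinib 2 and 3 they did not (0.42, -0.51 and 0.62). Between the treatments the values for Cox6a2, Cox7a1 and Cox8b were -2.75, -1.37 and -2.21 with all libraries, -4.48, -2.45 and -3.63 without lenvatinib 1 (adjusted p = 0.000668, 0.00652 and 0.0046), and changed sign without lenvatinib 2 and 3, to 0.72, 0.78 and 0.63. Cox6a2 was higher in every nanocluster library than in every Control library, with muscle markers at 81.6 to 90.9 against 27.1 to 88.9 FPKM. That difference of 1.14 did not pass with all libraries (adjusted p = 0.505), and passed without lenvatinib 1 (adjusted p = 0.0493) and without lenvatinib 2 and 3 (adjusted p = 0.0293). The ubiquitous partners Cox6a1, Cox7a2 and Cox8a were at 229 ± 7.70, 48.1 ± 2.51 and 201 ± 8.37 FPKM in the lenvatinib group (SD, n = 3), so even in lenvatinib 2 the muscle isoforms were at 24.4%, 26.6% and 13.6% of them. Cox6b2, the testis isoform, stayed below 1 FPKM, and Cox6c2, a copy of Cox6c, was at 2.52 to 5.50 FPKM. Neither passed in any of the 3 comparisons with all libraries.

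**Figure D4:**
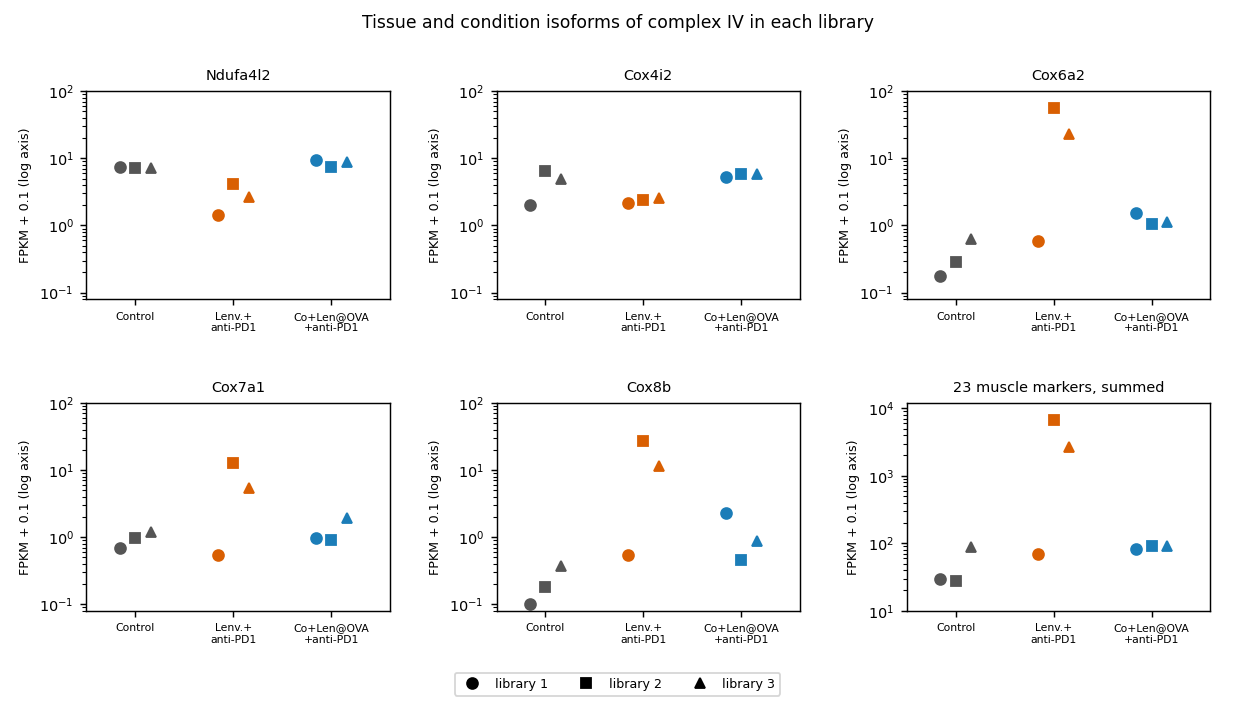
FPKM + 0.1 (vertical axis, log scale) of Ndufa4l2, Cox4i2, Cox6a2, Cox7a1 and Cox8b and of 23 muscle markers summed, in each library of the 3 groups (horizontal axis). Ndufa4l2 is lowest in the 3 lenvatinib libraries, Cox4i2 is low in these and in Control 1, and the muscle isoforms and markers are high in lenvatinib libraries 2 and 3 alone.

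The 13 subunits encoded in mitochondrial DNA were compared with their nuclear partners. They rose in 9 of 13 cases with lenvatinib against Control, where 13.8% of all genes rose, and none fell. Their median log2 fold change of 0.94 stood beside 0.20 for the nuclear set. Without lenvatinib 2 and 3, which leaves 1 library of the group, fewer passed, as over all genes tested. mt-Nd3, a complex I subunit, was at 313, 265 and 294 FPKM in Control, 820, 767 and 775 in the lenvatinib group and 469, 620 and 556 in the nanocluster group (1.44 and 0.91 against Control, adjusted p = 0.00018 and 0.000946, limma). In the nanocluster group only mt-Nd3 and mt-Nd1 rose against Control, with a median of 0.24 (8 rose without Control 1, 1 without nanocluster 3, 7 with scaling that leaves out mitochondrial genes and 1 with median-of-ratios scaling). Of all genes 20.9% rose in that comparison, and 12.0% fell between the treatments. Between the treatments all 13 fell, by a median of 0.53 on the log2 scale, 8 without nanocluster 3 and 8 without lenvatinib 2. Without lenvatinib 2 and 3 together fewer passed, as over all genes tested. With libraries 1 and 2 alone none of these calls passed.

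Summed FPKM of the mitochondrially encoded subunits was 10.8% to 12.8% of a library in Control, 15.8% to 17.3% in the lenvatinib group and 11.8% to 12.4% in the nanocluster group. Relative to the sum of the 81 nuclear genes it was 9.77 to 11.7 times as large in Control, 14.2 to 14.9 times in the lenvatinib group and 10.9 to 11.1 times in the nanocluster group. The 3 lenvatinib libraries lay above the other 6 in both measures, lenvatinib 1 included. The nuclear genes made up 1.07% to 1.10% of the total in Control, 1.11% to 1.16% in the lenvatinib group and 1.07% to 1.14% in the nanocluster group, so that lenvatinib lay above Control without overlap and the nanocluster group overlapped both. The gap was narrow, with lenvatinib 1 at 1.111% and Control 2 at 1.103%. As a share of the total without mitochondrial genes the nuclear genes made up 1.22% to 1.26%, 1.33% to 1.42% and 1.22% to 1.30%, and the 3 lenvatinib libraries lay above the other 6. All these sums include the muscle isoforms Cox6a2, Cox7a1 and Cox8b, which were high in lenvatinib 2 and 3. Tfam, which packages and transcribes mitochondrial DNA, was at 7.32, 8.06 and 7.57 FPKM in Control, 11.0, 9.66 and 10.3 in the lenvatinib group and 7.50, 7.64 and 7.62 in the nanocluster group. It rose with lenvatinib against Control (0.41, adjusted p = 0.00425) and fell between the treatments (-0.42, adjusted p = 0.0029).

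**Figure D5:**
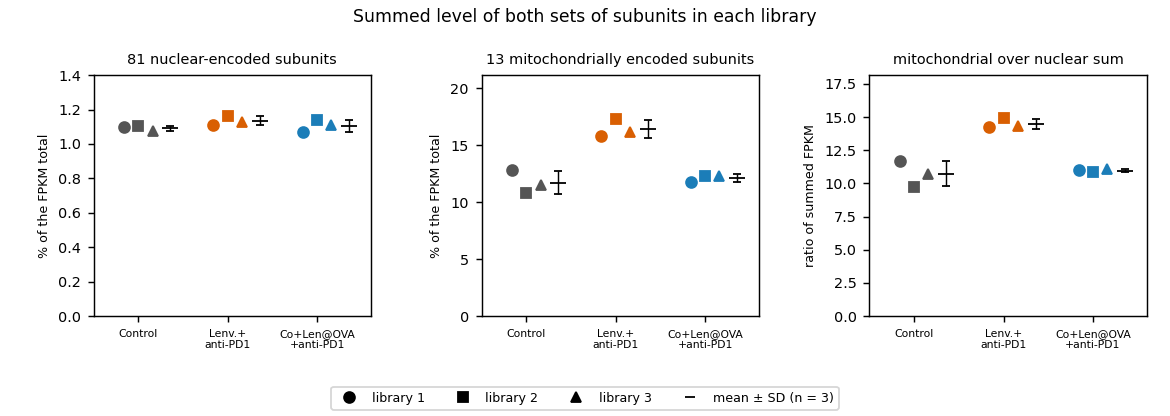
Summed FPKM of the 81 nuclear-encoded and the 13 mitochondrially encoded subunits as a percentage of each library's total, and the ratio of both sums (vertical axes, linear from 0), for each library of the 3 groups (horizontal axis), with mean ± SD (n = 3). The nuclear share is 1.11% to 1.16% in the lenvatinib libraries, just above the Control range of 1.07% to 1.10%, and the mitochondrial share and the ratio are highest in the 3 lenvatinib libraries.

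Assembly factors, which build the complexes without staying in them, rose in part in both treated groups. Of 45 tested 19 rose and none fell with the nanocluster against Control, with a median of 0.26, where 20.9% of all genes rose and their median was 0.13. With lenvatinib 16 of the 45 rose and none fell, with a median of 0.20, where 13.8% of all genes rose and their median was 0.05. Without nanocluster 2 or Control 3 the first count was 12, as it was with median-of-ratios scaling, where 1 fell. Without lenvatinib 1, 2 or 3 the second was 10, 8 and 8. It was lower still without both muscle-bearing libraries, where far fewer of all genes tested passed as well. Timmdc1, a factor for the membrane arm of complex I, was at 2.08, 2.83 and 2.69 FPKM in Control, 4.78, 6.20 and 4.49 in the lenvatinib group and 6.49, 6.71 and 6.80 in the nanocluster group (0.90 and 1.25 against Control, adjusted p = 0.00318 and 0.000629, limma). Cox17, the copper chaperone of complex IV, was at 2.60, 2.94 and 2.70 in Control, and at 4.66 to 5.12 in all 6 treated libraries (0.73 and 0.74, adjusted p = 0.000574 and 0.000434). Between the treatments 2 of the 45 rose and 1 fell, against 17.3% and 12.0% of all genes tested. Among the nuclear electron-transport genes that the name rule leaves out, Cycs (cytochrome c) rose from 18.8 to 31.6 FPKM with lenvatinib and 30.1 with the nanocluster (0.73 and 0.66, adjusted p = 0.00234 and 0.00283).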

How the data were processed

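Polyadenylated tumour RNA was made into 9 strand-marked libraries and read in pairs of 150 bases, per the labels' protocols. Tools named per the submitters' processing notes are StringTie, fastp and edgeR, with no version. The aligner is not given in the sources used here, nor are the build and gene models. The values the authors deposited are FPKM per gene, in a table presented as raw counts. No step gave counts, so limma 3.58.1 in R 4.3.3 was run on log2(FPKM + 0.5), a scale that understates changes of low genes, with a mean-variance trend, robust moderation and 1 fit of 9 libraries (6 residual degrees of freedom), two-sided, with Benjamini-Hochberg adjustment over the 15353 genes averaging 0.5 FPKM or more. "Rose" and "fell" mean an adjusted p under 0.05 in this fit. The fitting step was tested on simulated data.

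The subunits and gene lists were chosen with earlier results of these data known, so no list stands as independent support. The rule for genes given with values took every complex IV isoform with its partner, the largest changes past the threshold in each complex, the highest gene of each complex, the smallest p-values, and leading genes of comparison lists. Ndufs1, Ndufv3, Ndufa9 and Ndufb2, the genes listed by name alone and Cycs were added where a complex or a count needed them. The values of 1 gene the rule names are not reported here. Promoter windows are RefSeq's, build GRCm38.p6, matched by gene ID or symbol. The NRF1 and YY1 motifs were shortened after a first search with longer forms.

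Alternatives were other pseudocounts, filters and scalings, fits of 2 groups, a replicate block, a plain variance model, libraries 1 and 2 alone, and leaving out each library. Leaving out lenvatinib libraries 2 and 3 was added after seeing the data.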

Additional observations from a re-analysis of the deposited data

How the results depend on the processing

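The direction of every median over the 81 subunits held under the alternatives run, except that of the nanocluster against Control, which was -0.11 with median-of-ratios scaling and -0.00 with upper quartile scaling. Median-of-ratios scaling moved the median of all genes in that comparison from 0.13 to 0.00. Counts of subunits past the threshold moved with the settings, as did the shares of all genes tested, and the cause was not tested. With no filter on low values 4 rose and 2 fell for the nanocluster against Control, and 2 rose and 8 fell between the treatments. With median-of-ratios scaling 2 rose and 12 fell for the nanocluster against Control, and 2 rose between the treatments, where 24 fell. With scaling without mitochondrial genes 16 rose and 3 fell for the nanocluster against Control, where 22.4% and 10.8% of all genes did. With fits of 2 groups 3 fell for the nanocluster against Control and 25 fell between the treatments, and with the plain variance model 3 fell in the first of these. With libraries 1 and 2 alone 0 rose and 0 fell in both comparisons with Control, and 0 rose and 1 fell between the treatments. Leaving out lenvatinib libraries 2 and 3, an alternative chosen after seeing the data, leaves 1 library in that group. Fewer subunits and fewer of all genes tested then passed in each comparison. The median over the 81 subunits was 0.15 for lenvatinib against Control and -0.05 between the treatments, against 0.0088 and 0.12 over all genes. Leaving out 1 library at a time gave 3 to 13 risen and 1 to 5 fallen for the nanocluster against Control, 10 to 29 and 2 to 5 for lenvatinib against Control, and 1 to 4 and 5 to 26 between the treatments. With the replicate block 5 rose and 3 fell for the nanocluster against Control, 17 and 3 for lenvatinib against Control, and 3 and 8 between the treatments. Same-numbered libraries deviated with correlations of -0.25 to 0.08 over all genes tested. Whether the numbers pair the samples cannot be told from these values. Among isoforms the sign turned for Cox4i2 in the nanocluster against Control without Control 1 (-0.011, leave-one-out range to 0.74), for Cox6c2 without nanocluster 1 (0.10) or Control 1 (0.03; range from -0.19) and for Cox7a1 without nanocluster 3 (-0.0017, range to 0.42). For lenvatinib against Control it turned for Cox6b2 without lenvatinib 2 (-0.02) or Control 1 (-0.10, range to 0.25), for Cox6c2 without lenvatinib 1 (-0.017, range to 0.31) and for Cox7a1 without lenvatinib 2 and 3 (-0.51). Between the treatments it turned without lenvatinib 2 and 3 for Cox6a2 (0.72), Cox7a1 (0.78) and Cox8b (0.63). The depth of each library is unknown, so no interval from counting is given for low genes such as Ndufs6b, Cox6b2 and Cox8b.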

Other observations

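Between the treatments, genes of the tricarboxylic acid cycle and of mitochondrial import had median log2 fold changes of -0.16 (15 of 17 negative) and -0.18 (13 of 16 negative), where the median of all genes was 0.07. These list medians were not computed without the muscle-bearing lenvatinib libraries 2 and 3, where that of the 81 subunits went from -0.17 to -0.05. Of 17 cycle genes 1 rose and 3 fell with the nanocluster against Control, 1 rose and 1 fell with lenvatinib against Control, and 3 fell between the treatments. Of 16 import and outer membrane genes 4 fell with the nanocluster against Control, 3 rose with lenvatinib against Control and 3 fell between the treatments. Of 17 regulators of mitochondrial biogenesis 3 rose with the nanocluster and 4 with lenvatinib, each against Control, and 2 fell between the treatments, Tfam and Lrpprc. Of all genes tested 20.9% rose and 12.7% fell with the nanocluster against Control, and 13.8% and 9.87% with lenvatinib against Control. Between the treatments 17.3% of all genes rose and 12.0% fell. Lrpprc, which stabilises mitochondrial messenger RNAs, was at 4.83, 6.80 and 6.05 FPKM in Control, 9.11, 8.92 and 9.61 in the lenvatinib group and 6.79, 7.26 and 7.22 in the nanocluster group. The lenvatinib libraries lay above all others for Lrpprc. Of the 81 nuclear subunits 44 passed in no comparison, and the share of all genes that did so was not counted.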
